A study of Mus musculus with 4 samples.

Results

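The MT repeats are a rodent family of the MaLR (mammalian apparent LTR retrotransposon) group, with subfamilies named from MTA, the youngest, to MTE, the oldest. The copies described here are all rows of the deposited table of repeats whose repeat name starts with MTA, MTB, MTC, MTD or MTE. There were 1500 such copies with 19 repeat names, out of 36284 copies with 1040 names. MTA held 108 copies, MTB 125, MTC 319, MTD 477 and MTE 471. No copy with fewer than 21 reads over the 4 libraries is listed, so these copies are only a part of the family. The 69 listed copies of MTA_Mm are 0.48% of its highest copy number, 14365, and the 439 of MTD are 0.86% of 51247. The rule used names only and no measured value. The libraries, 2 of SON and 2 of GFP control, hold messenger RNA of MEFs (fibroblasts cultured from mouse embryos) of the BALB/c strain. SON cells were infected with the lentivirus that carries Nanos2, Oct4 (its gene is Pou5f1) and Stella (its gene is Dppa3), and GFP control cells with a control lentivirus that carries GFP. Cells of both groups were infected at passage 2. Selection in 2 μg/ml puromycin began 72 h later and took 4 days, and culture went on for 21 days without the drug. Whether a group's libraries came from separate cultures or embryos, and what promoter drives the delivered genes, is not given in the labels. The p-values below therefore measure only the spread between these libraries, which may be technical. The 3 genes were delivered together, so their effects cannot be told apart.

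As background, an intact MaLR element has an LTR (long terminal repeat) at each end of an internal part, and the names that end in -int are internal parts. The internal part encodes no retroviral proteins of its own, so these elements are thought to have been copied with the enzymes of related ERVL retroviruses. Most genomic copies are solitary LTRs or fragments. MT LTRs contain promoters that are strongly active in growing mouse oocytes, where they start many chimeric transcripts, among them an oocyte form of Dicer1 that starts in an MTC LTR. In somatic cells reads over an MT copy can also come from a longer transcript that contains it, and reads without strand, as from the TruSeq mRNA kit v2, do not separate these sources.

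Values are normalized read counts: reads of a copy divided by 1 size factor per library. The repeats table names its columns by group and a letter, and no label gives these letters a sample, so libraries are called SON a, SON b, GFP control a and GFP control b. Reads in repeats came to 565399 and 469737 in SON and to 850223 and 1119717 in the GFP control, so 1 read is worth 1.36 and 1.47 in SON a and b, and 0.837 and 0.595 in GFP control a and b. Ribosomal RNA rows took 22.3% and 7.84% of the repeat reads in SON a and b, against 1.97% and 3.33% in GFP control a and b. In the gene table the delivered genes Dppa3, Pou5f1 and Nanos2 had values between 295 and 449 in both SON libraries, against at most 0.594 in both GFP control libraries. Of 13 fibroblast markers 13 had enough reads to be tested, and 9 had a negative difference and 4 a positive one. Their median log2 difference was -0.67, and limma called 0. At an unadjusted limma p under 0.05, 5 were lower and 0 higher, where 6.57% of all genes were lower and 5.99% higher. They summed to 490123 and 422669 in SON, against 852280 and 480914 in the GFP control, so the groups overlapped. The 9 macrophage markers found by name summed to 468 and 1262 in SON, against 1411 and 1471 in the GFP control, and the 6 smooth muscle markers had a median of 0.68, though their sum was 419588 in the library SON I and only 132624 in the other SON library, against 145741 and 161260 in the GFP control. Without SON I that median was -0.19. Of 7 epithelial markers 3 were tested, with a median of 1.20. The part of ribosomal RNA and of these marker groups in the results below was not tested.

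No difference between the groups passed a test over the sum of all listed MT copies. These copies together summed to 24396 in SON a and 27225 in SON b, against 29220.0 in GFP control a and 27148 in GFP control b. The groups overlapped: SON b lay above GFP control b. The log2 ratio of SON to GFP control was -0.13 (two-sided exact permutation p = 0.667). With 2 against 2 libraries the smallest p that this test can give is 0.333. In a limma fit over all repeat names with the family summed to 1 value, the log2 difference was -0.13 with a 95% interval from -0.37 to 0.11 (limma adjusted p = 0.681). Bulk RNA does not tell fewer cells that transcribe a copy from less RNA per cell.

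The MT share of all repeat reads was 3.18% in SON a (exact Clopper-Pearson 95% interval 3.13% to 3.22%) and 3.94% in SON b (3.89% to 4.00%). It was 4.11% in GFP control a (4.07% to 4.15%) and 4.07% in GFP control b (4.04% to 4.11%). Intervals cover counting error only. SON a, the library with the lowest MT share, is also the one with the most ribosomal reads. Without ribosomal rows the MT share was 4.08% and 4.28% in SON, against 4.19% and 4.22% in the GFP control, so the 2 GFP control libraries lay between the 2 SON libraries.

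By subfamily, the log2 ratio farthest from 0 was that of MTA. MTA copies summed to 1526 and 1773 in SON, against 2204 and 2005 in the GFP control, and both SON libraries lay below both GFP control libraries. The MTA log2 ratio was -0.35 (exact permutation p = 0.333, the smallest possible). With the subfamilies entered in the limma fit over all names, the MTA difference was -0.35 with a 95% interval from -0.70 to -0.01 and did not pass (limma adjusted p = 0.404). MTB summed to 1893 and 1910.1 in SON, against 2312 and 1967 in the GFP control, or -0.17. MTC summed to 4142 and 4617 in SON, against 4975 and 4333 in the GFP control, or -0.09. MTD summed to 7080 and 7768 in SON, against 8444 and 7513 in the GFP control, or -0.10. MTE, the oldest subfamily, summed to 9755 and 11156 in SON, against 11284 and 11331 in the GFP control, or -0.12. The groups did not overlap for MTB and MTE and did for MTC and MTD. The limma adjusted p of these 4 subfamilies lay between 0.703 and 0.829, and their 95% intervals, the lowest reaching -0.50 and the highest 0.22, all included 0. Relative to MTE in the same library, MTA was lower in both SON libraries, with log2 ratios of -2.68 and -2.65 in SON against -2.36 and -2.50 in the GFP control (exact permutation p = 0.333). A large part of this contrast came from 4 MTA copies in consecutive rows, described below, which were picked after their values had been seen. Without them the log2 ratio of SON to GFP control was -0.09 for MTA and -0.12 for MTE. Taking out copies picked for low SON values was bound to shrink the MTA difference, and no MTE copy was taken out. These 2 ratios therefore do not rank the subfamilies.

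**Figure D1:**
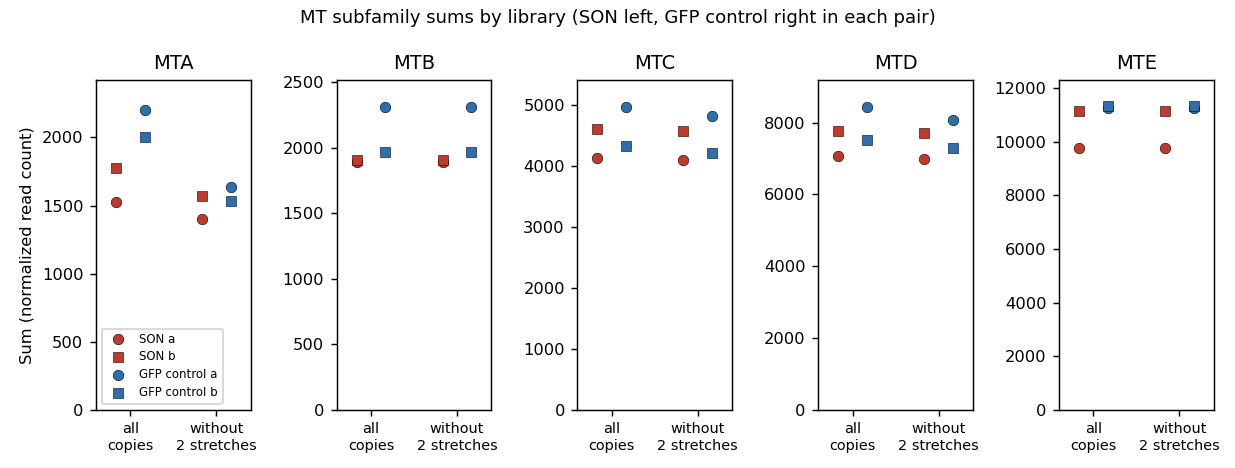
Summed normalized read count of each subfamily in each library, over all listed copies and without the members of 2 stretches of table rows that are described in the text. Circles and squares are libraries a and b, with SON in red left of GFP control in blue. The MTA groups are apart over all copies and overlap without the stretches, where SON sums to 1400 and 1573, against 1636 and 1534 in the GFP control. The stretches were picked after their values had been seen.

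Summed per repeat name, 16 of the 19 MT names had a negative limma difference and 3 a positive one (84.2% negative, against 67.8% of all 943 names), and none passed the adjusted threshold of 0.05. Of all 943 names tested with limma, 0.318% were called higher and 0.53% lower. At an unadjusted limma p under 0.05, 1 MT name was lower and 0 were higher, where 9.33% of all names were lower and 2.55% higher. DESeq2 called 0 MT names, where it called 0.53% of all names higher and 1.7% lower, and edgeR called 0 MT names and 0% of all names. At an unadjusted p under 0.05 both had 0 MT names, where DESeq2 had 2.86% of all names higher and 4.14% lower and edgeR 5.94% each way. The median difference over the MT names was -0.13, against -0.12 over all names. Both SON libraries lay below both GFP control libraries for 8 MT names and above for 0, where this held for 32.1% and 13% of all names.

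Both MTA names lay lower. MTA_Mm, the LTR, summed to 859 and 1039.6 in SON, against 1242 and 1135 in the GFP control, a log2 difference of -0.33 with a standard error of 0.17 (limma adjusted p = 0.496). MTA_Mm-int, the internal part, summed to 667 and 734 in SON, against 962 and 869.9 in the GFP control, or -0.39 ± 0.17 (limma adjusted p = 0.409). Its 95% interval ran from -0.77 to -0.01, and it is the 1 name under the unadjusted threshold.

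The MTB names had unlike values. MTB summed to 497 and 601 in SON, against 819 and 653 in the GFP control, or -0.42 ± 0.20 (limma adjusted p = 0.446), with separate groups. MTB_Mm summed to 864 and 775 in SON, against 895 and 775 in the GFP control, or -0.03. Its internal part MTB_Mm-int had 243 and 172 in SON, against 219 and 179 in the GFP control, and MTB-int had 288 and 362 in SON, against 379 and 359 in the GFP control. For these 3 names the groups overlapped.

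MTC, with 271 listed LTR copies, summed to 3227 and 3526 in SON, against 3816 and 3325 in the GFP control, and MTC-int to 915 and 1091 in SON, against 1159 and 1008 in the GFP control. Both overlapped between the groups. MTD, the largest name with 439 copies, summed to 5898 and 6717 in SON, against 7002 and 6274 in the GFP control, a log2 difference of -0.07 with a 95% interval from -0.37 to 0.22. MTD-int had separate groups, with 1182 and 1051 in SON, against 1442 and 1239 in the GFP control (log2 -0.26, limma adjusted p = 0.560).

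The MTE names ranged from lower to slightly higher. MTE2a, an LTR name, had 1973 and 2016 in SON, against 2398 and 2435 in the GFP control, or -0.28 with a 95% interval from -0.59 to 0.04 (limma adjusted p = 0.496). MTE2b summed to 1344 and 1769 in SON, against 1721 and 1475 in the GFP control. MTEa summed to 1272 and 1610.1 in SON, against 1619.6 and 1654 in the GFP control. MTEb summed to 1796 and 1931 in SON, against 1675 and 1884 in the GFP control, which is 1 of the 3 positive differences (0.07). Of these 4 LTR names, MTE2a and MTEa had separate groups. Among internal parts MTE2a-int and MTE2b-int had separate groups too. MTE2a-int summed to 435 and 378 in SON, against 441 and 445 in the GFP control, and MTE2b-int to 82.9 and 103 in SON, against 109 and 129.7 in the GFP control. MTEa-int, MTEb-int and MTE-int overlapped. MTEa-int summed to 449.8 and 671 in SON, against 829 and 633 in the GFP control, and MTE-int to 459 and 519 in SON, against 557 and 386 in the GFP control. MTEb-int summed to 1943 and 2160.1 in SON, against 1936 and 2289.6 in the GFP control.

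**Figure D2:**
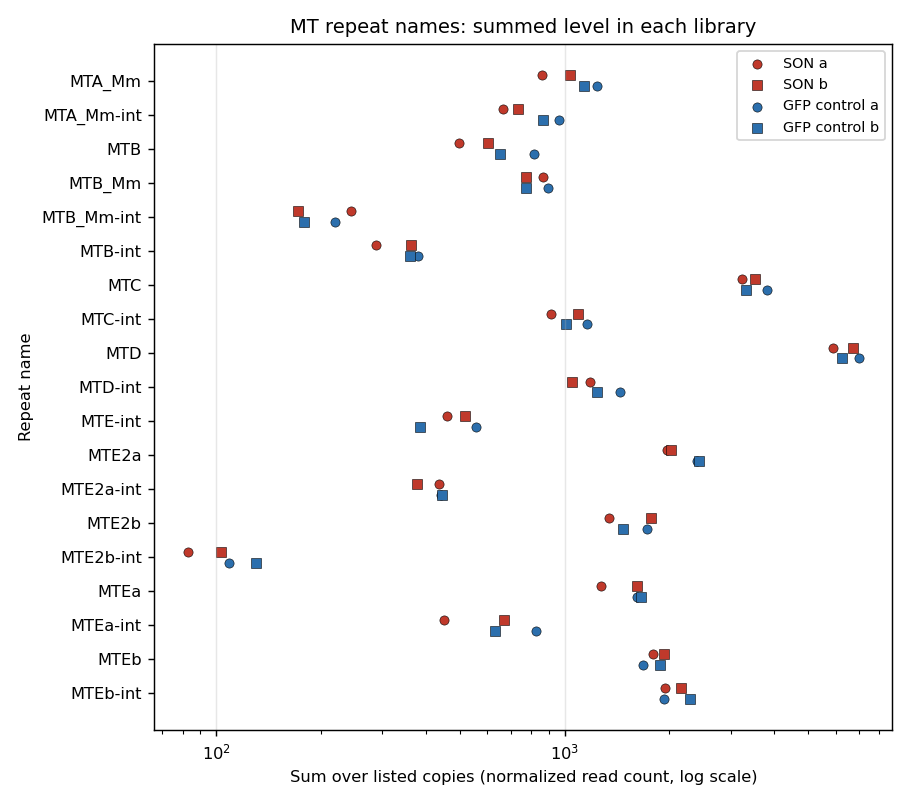
Normalized read count summed over the listed copies of each of the 19 MT names, on a log axis, with SON (red) drawn above GFP control (blue) in each row and libraries a and b as circles and squares. The lowest ratio of SON to GFP control means is that of MTB (0.746), and the groups of MTB_Mm, MTC and MTD overlap.

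Copy by copy, most rows rest on few reads. Reads per listed MT copy, summed over 4 libraries, ran from 21 to 8844 and had a median of 36, which is also that of the whole table. The filter on low values kept 732 MT copies and left out 768, which together held 18.3% of the MT reads and at most 67 reads each. The copies left out summed to 4604 and 5194 in SON, against 5387 and 4805 in the GFP control, so that these sums overlapped. A copy with few reads passes the filter more easily through the group where it is high, so counts over the tested copies describe them and no more.

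Limma called 0 of the 732 tested MT copies and 0 of all 17390 tested copies, and edgeR also called 0. At an unadjusted limma p under 0.05, 65 MT copies were lower and 26 higher, where 6.38% of all tested copies were lower and 3.15% higher. For edgeR the unadjusted counts were 59 lower and 37 higher, where 5.8% and 4.42% of all copies were. DESeq2 called 4 MT copies lower and 0 higher, where 0.397% of all copies were called lower and 0.184% higher. In DESeq2, 27 MT copies were lower and 11 higher at an unadjusted p, where 3.01% and 1.91% of all copies were, and 420 MT copies got no adjusted p. Both SON libraries lay below both GFP control libraries for 190 tested MT copies and above for 133, where this held for 24.2% and 17.1% of all tested copies. Single libraries decided the counts of calls. Limma called 5 MT copies without GFP control b, 43 without SON a and 55 without SON b, where 0.749%, 3.89% and 3.80% of all copies tested in those fits were called, and 0 without GFP control a, where 0.098% were. DESeq2 called 0 without GFP control a and 0 without GFP control b, where 0.00544% and 0.139% of all copies were called. It called 1 without SON a and 2 without SON b, where 0.123% and 0.233% were. In the fits with 1 SON or 1 GFP control library, that library is assumed to vary like the other group.

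The median log2 difference of the tested MT copies was -0.14, and that of all tested copies was -0.11. This shift depends on the scale. With each library scaled to the same total of repeat reads the median of all copies was -0.18 and that of MT copies -0.21, with 60.4% of MT copies and 61.4% of all copies negative. With factors taken from all rows but the ribosomal ones, the median of all copies was 0.006 and that of MT copies -0.02. With those factors 50.8% of the tested MT copies and 49.6% of all copies had a negative difference, and on the deposited scale 56.8% and 56.6% had. By subfamily the medians were -0.26 for MTA, -0.18 for MTB, -0.07 for MTC, -0.06 for MTD and -0.22 for MTE. LTR copies had a median of -0.13 and internal copies one of -0.17. Replicates of a group differed by shifts of their own: the median of library a minus library b over the tested MT copies was -0.11 in SON and 0.17 in the GFP control. For single copies the median absolute difference between SON a and b was 0.70 on the log2 scale, and between GFP control a and b it was 0.41.

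**Figure D3:**
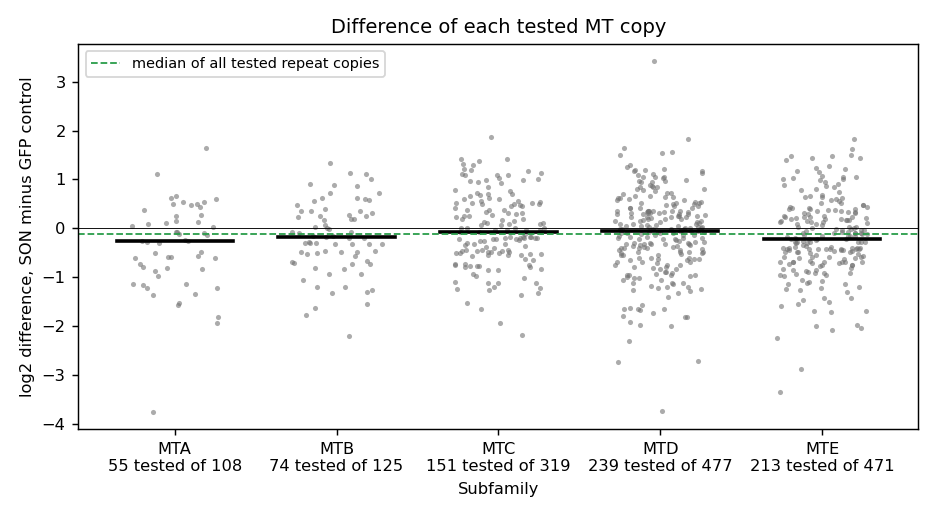
Log2 difference of SON minus GFP control for each of the 732 tested MT copies by subfamily, with a thick line at the subfamily's median. The medians lie between -0.26 and -0.06, close to the dashed line at the median of all tested repeat copies (-0.11), and single copies reach from -3.76 to 3.42.

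The extremes came from copies with few reads. Of the 84 MT copies with 200 or more reads, all tested, 60 had a negative difference, and the range was -2.71 to 1.11 with an SD of 0.66 across copies. These 84 include neighbouring copies of the stretches described below, and the share over all repeats at this depth was not computed. Among the 216 tested copies with 21 to 49 reads 99 had a negative difference, and the range was -3.76 to 3.42 with an SD of 0.94. The lowest value was that of MTA_Mm-int_1159, an internal MTA copy with 0 reads in both SON libraries, against 15 and 21 reads in GFP control a and b. With 3 reads over the SON group in place of 0, and the GFP control reads taken as exact, it was 5.91-fold lower. That fold is not a bound on the difference. This copy had a limma 95% interval from -9.12 to 1.60 on the log2 scale, which includes 0 (limma adjusted p = 0.629). It is 1 of 6 MT copies with 0 reads in both SON libraries, while 0 copies had 0 reads in both GFP control libraries, which were sequenced more deeply. The highest value was that of MTD_20173, an MTD LTR with 15 and 9 reads in SON, against 2 and 0 reads in the GFP control (limma adjusted p = 0.497).

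**Figure D4:**
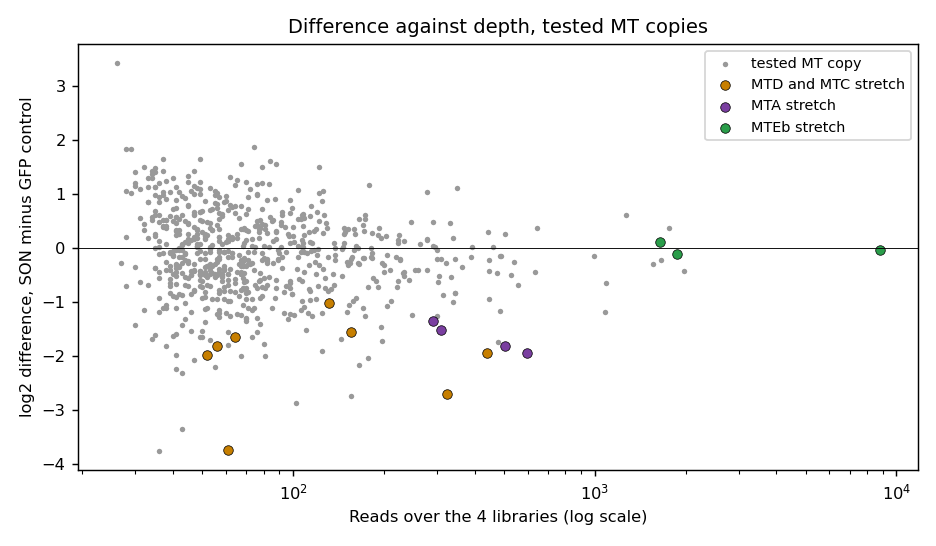
Log2 difference of SON minus GFP control against the reads summed over the 4 libraries (log axis) for the 732 tested MT copies. Coloured points are the members of 3 stretches of neighbouring rows, and the SD across copies is 0.94 at 21 to 49 reads and 0.66 at 200 or more.

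A few copies carried much of the signal of a name. MTEb-int_61 alone had 8844 reads, 97.6% of those of MTEb-int and 18.7% of all MTE reads. It measured 1879 and 2125 in SON, against 1891 and 2235 in the GFP control (log2 -0.04 ± 0.27, limma adjusted p = 0.976), and the groups overlapped. In the table it stands between MTEb_1180 and MTEb_1181, an LTR on each side as in a whole element. MTEb_1180 measured 319 and 519 in SON, against 413 and 469 in the GFP control, and MTEb_1181 measured 371 and 434 in SON, against 356 and 391 in the GFP control. The groups overlapped in all 3 rows. MTE2a_3479, MTE2a-int_151 and MTE2a_3480, an internal part between LTRs, also stand in consecutive rows. MTE2a_3479 measured 13.6 and 14.7 in SON, against 17.6 and 13.1 in the GFP control, with overlapping groups. MTE2a-int_151, with 89.6% of the reads of its name, measured 361 and 331 in SON, against 395 and 415 in the GFP control. MTE2a_3480 measured 315 and 315 in SON, against 371 and 402 in the GFP control. These last 2 copies were lower in both SON libraries, by log2 -0.23 and -0.29 (limma adjusted p = 0.820 and 0.748). In MTD, MTD-int_597 held 32.7% of the reads of MTD-int and measured 533 and 426 in SON, against 349.7 and 394 in the GFP control (log2 0.36, limma adjusted p = 0.692). Of the 5 subfamilies, MTC had the lowest share in its top copy, with 3.25% of its reads in MTC_90.

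Numbers within a repeat name ascend down the table for all 1040 names, so neighbouring rows follow the order of some annotation, whose positions are not used here. In 111 places 2 or more MT copies of 1 subfamily stood in consecutive rows, 249 copies in all, and in 15 of them an internal part stood between LTR parts. The fits and counts per copy took each row on its own, so such neighbours entered them separately although their values may not be independent.

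The 4 copies that DESeq2 called lower came from 2 stretches of the table. The MTA stretch has 4 consecutive rows in the order LTR, internal, internal, LTR. MTA_Mm_6769, its first LTR, measured 38.0 and 49.99 in SON, against 179 and 135 in the GFP control. MTA_Mm-int_1393, the MTA copy with the most reads, measured 39.4 and 57.3 in SON, against 197 and 175 in the GFP control. MTA_Mm-int_1394 measured 16.3 and 61.8 in SON, against 93.7 and 73.8 in the GFP control, and MTA_Mm_6770, the last LTR, 32.6 and 30.9 in SON, against 98.7 and 87.5 in the GFP control. In all 4 rows both SON libraries lay below both GFP control libraries, where this held for 24.2% of all tested copies. The log2 differences were -1.81 ± 0.33, -1.94 ± 0.33, -1.35 ± 0.56 and -1.52 ± 0.33 (SE), in table order. The limma adjusted p was 0.165 for the first 2 rows, and DESeq2 gave adjusted p values of 0.0275 for MTA_Mm_6769 and 0.0108 for MTA_Mm-int_1393.

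The difference in this stretch was large beside the net MTA difference. Summed over MTA, SON minus GFP control was -455 normalized counts, and the difference summed over these 4 of 108 copies was 78.3% of that. Rises and falls of other copies cancel in the net difference, so the percentage is not a share of a whole. Without them MTA summed to 1399.7 and 1573 in SON, against 1636 and 1534 in the GFP control, the groups overlapped and the log2 ratio was -0.09. The stretch was picked after its values had been seen, so a high percentage follows in part from that choice. Its difference was 72.8% of the net difference in MTA_Mm and 84.5% of that in MTA_Mm-int.

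The other stretch has 22 rows from MTD_14651 to MTD_14660, of which 10 are MT copies (6 MTD LTRs, 3 MTD internal parts and 1 MTC internal part) and 12 are other repeats. In 21 of the 22 rows both SON libraries lay below both GFP control libraries, MTD-int_779, a tested row, being the exception. Only 18 of the 22 rows had enough reads to be tested. Among all tested copies 24.2% had both SON libraries below both GFP control libraries. The first and last rows of the stretch were picked after the values had been seen, so a high count follows in part from that choice. MTD-int_785 measured 25.8 and 8.82 in SON, against 139 and 79.7 in the GFP control (log2 -2.71 ± 0.52, limma adjusted p = 0.167, DESeq2 adjusted p = 0.00984). MTC-int_1045 measured 39.4 and 30.9 in SON, against 158 and 119.6 in the GFP control (log2 -1.95 ± 0.34, limma adjusted p = 0.165, DESeq2 adjusted p = 0.0226). Of the LTRs beside them, MTD_14658 had 1 and 0 reads in SON, against 42 and 18 in the GFP control, and MTD_14660 measured 12.2 and 19.1 in SON, against 55.2 and 40.5 in the GFP control.

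Rows of other families in the same stretch were lower in both SON libraries as well. B4A_32663, a SINE, measured 6.79 and 2.94 in SON, against 79.5 and 37.5 in the GFP control (log2 -3.33). Cheshire_333, a DNA transposon, measured 8.15 and 8.82 in SON, against 54.4 and 35.1 in the GFP control (log2 -2.24). L1MEd_986, an old LINE-1 fragment, measured 4.08 and 8.82 in SON, against 38.5 and 29.7 in the GFP control (log2 -2.30). Over the 18 tested rows of the stretch all differences were negative, from -3.74 to -0.68, with a median of -1.88. Summed over its rows the stretch had 236 and 147 in SON, against 964.5 and 614 in the GFP control. The difference in its MTD-int members was 56.0% of the net MTD-int difference. Without its members MTD-int summed to 1124 and 1028 in SON, against 1226 and 1122 in the GFP control, and the groups overlapped.

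**Figure D5:**
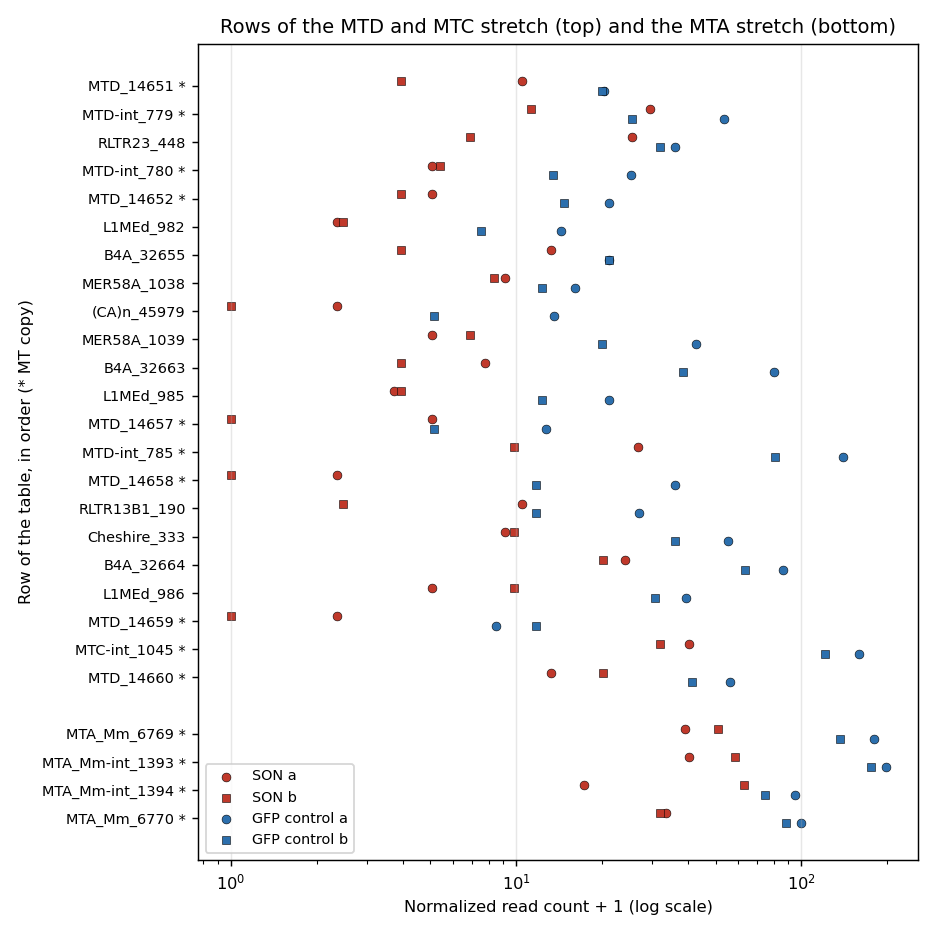
Normalized read count plus 1 (log axis) in each library for the 22 rows of the MTD and MTC stretch and the 4 rows of the MTA stretch, in table order, with SON (red) above GFP control (blue) and MT copies marked with an asterisk. In all rows but MTD-int_779 both SON points lie left of both GFP control points, in MT and other repeats alike. Both stretches were picked after their values had been seen.

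Differences of MT copies were correlated with those of neighbouring rows. For 58 pairs of tested MT copies in consecutive rows Pearson's r of the log2 differences was 0.76 (Spearman's rho 0.62), and 42 pairs had the same sign. Without the members of the 2 stretches r was 0.60 (rho 0.49) over 52 pairs, 36 of them with the same sign. Against the median of the 10 nearest tested rows that are no MT copies (5 on each side), r was 0.35 (rho 0.28) over 732 copies, and 0.54 (rho 0.48) over the 216 with at least 100 reads. These correlations run across copies of the same 4 libraries, which are not independent replicates, and are given as a description.

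Outside these stretches each subfamily had copies in both directions, and none of the following passed limma over all copies. In MTA the largest positive difference among copies with separate groups was that of MTA_Mm_10882, with 20.4 and 13.2 in SON, against 5.02 and 4.17 in the GFP control (log2 1.65, limma adjusted p = 0.481). MTA_Mm-int_829 measured 160.3 and 98.5 in SON, against 72.8 and 45.8 in the GFP control (log2 1.11, limma adjusted p = 0.454). MTA_Mm_11329, with 503 reads, measured 129 and 131 in SON, against 99.5 and 119 in the GFP control. These MTA copies lay higher in both SON libraries. Other MTA copies outside the stretch had negative differences, among them MTA_Mm_941 (484 reads, log2 -1.17) and MTA_Mm_1109 (211 reads, log2 -0.98). Of the 55 tested MTA copies, the stretch included, 35 had a negative difference and 20 a positive one. That is 63.6% negative, against 56.6% of all tested copies.

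In MTB the highest copies with separate groups were MTB_Mm_3160, at 16.3 and 20.6 in SON against 7.53 and 5.95 in the GFP control, and MTB_Mm-int_41, at 13.6 and 13.2 in SON against 5.86 and 5.36 in the GFP control. The lowest were MTB_Mm_3209, at 1.36 and 5.88 in SON against 20.1 and 15.5 in the GFP control, and MTB_2434, at 6.79 and 5.88 in SON against 38.5 and 14.9 in the GFP control. The limma adjusted p of these 4 lay between 0.411 and 0.577. The MTB copies with the most reads overlapped between groups: MTB_Mm_4440 measured 119.6 and 94.1 in SON, against 133 and 105 in the GFP control, and MTB_1450 measured 69.3 and 113 in SON, against 149.7 and 101 in the GFP control.

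In MTC the highest were MTC_26206, at 21.7 and 32.3 in SON against 1.67 and 20.2 in the GFP control, and MTC_20736, at 16.3 and 14.7 in SON against 5.02 and 5.36 in the GFP control. The lowest was MTC_8105, followed by MTC-int_1045 of the stretch. MTC_8105 stood at 23.1 and 4.41 in SON against 69.4 and 36.9 in the GFP control (log2 -2.18, limma adjusted p = 0.402). MTC_90, with the most MTC reads, measured 159 and 86.8 in SON, against 174 and 148 in the GFP control, and MTC-int_2778 measured 99.2 and 119 in SON, against 121 and 95.8 in the GFP control. The groups of these 2 copies overlapped.

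In MTD the second largest positive difference was that of MTD_12320, at 14.9 and 11.8 in SON against 2.51 and 3.57 in the GFP control. MTD_25385 measured 2.72 and 13.2 in SON, against 83.7 and 26.8 in the GFP control (log2 -2.74 ± 0.73, limma adjusted p = 0.316, DESeq2 adjusted p = 0.0721). MTD-int_2322 measured 175 and 196 in SON, against 344 and 249 in the GFP control (log2 -0.66, limma adjusted p = 0.534). Both SON libraries lay below both GFP control libraries for these last 2 copies.

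In MTE the highest were MTE-int_3000, at 10.9 and 17.6 in SON against 4.18 and 2.38 in the GFP control, and MTE2a-int_165, at 54.4 and 20.6 in SON against 15.9 and 6.55 in the GFP control. The lowest were MTE2a_6505, with 1 and 0 reads in SON against 23 and 19 in the GFP control, and MTEb_8844, with 0 and 11 reads in SON against 27 and 64 in the GFP control. MTEa-int_826, which held 69.7% of the reads of MTEa-int, measured 309.8 and 460.2 in SON, against 583 and 443 in the GFP control, with overlapping groups.

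Other MaLR and ERVL families give the values to set beside these. The ORR1 family, the other large mouse MaLR group, summed to 20431 and 23618 in SON, against 26684 and 23859 in the GFP control. Its 724 tested copies had a median of -0.17, with 63 lower and 15 higher at an unadjusted limma p under 0.05 (8.70% and 2.07%). Of all tested copies 6.38% were lower and 3.15% higher. The older MLT family had a median of -0.10 over 327 tested copies, with 23 lower and 13 higher (7.03% and 3.98%). The MERVL and MT2 copies, the related autonomous family, had a median of -0.08 over 203, with 16 lower and 5 higher (7.88% and 2.46%). The MT sum over the ORR1 sum was 0.26 and 0.21 on the log2 scale in SON, against 0.13 and 0.19 in the GFP control (exact permutation p = 0.333). Over MLT it was 1.12 and 1.18 in SON, against 1.17 and 1.18 in the GFP control (p = 0.667 by the exact permutation test), and over all other repeats without ribosomal rows -4.55 and -4.48 in SON, against -4.52 and -4.51 in the GFP control (exact permutation p = 1). None of these differences could pass 0.05 with 2 against 2 libraries.

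A fixed list of genes tied to retroelement silencing gave no call. Besides histone and DNA methyltransferases it holds deacetylases, histone chaperones, the histone demethylase Kdm1a and the DNA demethylation enzymes Tet1, Tet2 and Tet3. Its counts and median therefore pool genes of unlike action. Of 33 on the list 31 were found by name and tested, and limma called 0 of 31 over all 15283 genes, with 0 at an unadjusted p under 0.05. Limma called 0.0327% of all genes higher and 0.0196% lower, and 5.99% and 6.57% were higher and lower at an unadjusted p. The list's median log2 difference was 0.07, with 21 positive and 10 negative, against -0.01 over all genes. Trim28, the corepressor KAP1, measured 6514 and 5093 in SON, against 5666 and 5676 in the GFP control, and the histone deacetylase Hdac2 3065 and 2879 in SON, against 3144 and 3171 in the GFP control. Dnmt3b, a de novo DNA methyltransferase, measured 30.0 and 17.6 in SON, against 45.9 and 28.5 in the GFP control, and Cbx3, a heterochromatin protein 1 family member, measured 635 and 488 in SON, against 786 and 748 in the GFP control (log2 -0.46, limma adjusted p = 0.413). Without SON I the median of the list was -0.16.

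The oocyte program, the setting in which MT promoters are known to be active, had few reads. Of 26 genes of oocytes and the germ line, 23 had too few reads to be tested, and the 8 oocyte markers, among them the zona pellucida genes Zp1, Zp2 and Zp3, summed to 16.4 and 23.5 in SON, against 14.2 and 11.9 in the GFP control. Limma called 0 of the 3 tested genes, with 1 lower at an unadjusted p. It was Ddx4, the germ cell helicase VASA, which measured 13.6 and 11.8 in SON, against 45.1 and 43.99 in the GFP control (log2 -1.74, limma adjusted p = 0.251). Tle6, of the subcortical maternal complex, measured 187 and 256 in SON, against 263 and 284 in the GFP control. Lhx8, an oocyte transcription factor that is also found in other tissues, measured 87.3 and 165 in SON, against 141 and 72.5 in the GFP control.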

How the data were processed

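Libraries made with an mRNA kit from 2 SON and 2 GFP control samples were used. Per the submitters' processing notes, the build is named as GRCm38 and mm10, and the list holds the aligners STAR 2.4.0j and TopHat2 2.0.11, the counters featureCounts (Subread) and HTSeq 0.5.3p3, and also DESeq2 and CASAVA 1.8.1. The sources used here give neither the tool behind each table nor the treatment of multi-mapping reads. The deposited repeats table and gene table hold a signal, namely read numbers scaled with a size factor for each library. For repeats, 100% of values were whole multiples of 1 step per library within 0.01 reads, and reads of both tables were recovered by division. Per the file headers the deposited gene table also holds the authors' DESeq2 log2 fold change, its standard error and Wald score, a p-value and a mean signal, which were not used. Reads in genes came to 17365551 and 14680865 in SON and 28924700 and 37097571 in the GFP control. The floor of 3 reads was 4.08, 4.41, 2.51 and 1.79 normalized counts in SON a and b and GFP control a and b. No 2 libraries were copies of one another (chi-square per degree of freedom at least 2.73).

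Values were tested after adding a pseudocount of 1 and taking log2, with limma 3.58.1 (R 4.3.3) and a trend, two-sided, Benjamini-Hochberg adjusted over all copies, names or genes tested, at 0.05. The fold changes are on that scale and understate the change of low rows. Low rows were removed with filterByExpr of edgeR 4.0.16, leaving 17390 copies, 943 names and 15283 genes. Sums were compared by exact permutation over libraries. EdgeR (quasi-likelihood) and DESeq2 1.42.0 were run on the recovered reads. The fits were also run on simulated counts, drawn independently for each row and library. Neighbouring rows were thus not correlated there as they are here, and no outcome of that run is used. The members and lists were chosen with earlier results of these data known. Named were all names, and per subfamily the called copies, the 2 with the most reads and the 2 largest rises and falls with separate groups. In gene lists the called genes or else the 2 highest and the 2 largest differences were named, of which some are left out. The epithelial markers were all named. MTA_Mm_941, MTA_Mm_1109, MTEb_1180, MTEb_1181, MTE2a-int_151, MTE2a_3479, MTE2a_3480 and the rows of stretches were chosen after their values were seen. Genes Fam208a, Resf1 and Adgre1 were not found by name.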

Additional observations from a re-analysis of the deposited data

How the results depend on the processing

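No MT name was called under any alternative run here. With no filter or with 1 CPM in 2 libraries, 91 of 1500 MT copies were lower and 43 higher at an unadjusted limma p (6.07% and 2.87%, against 4.97% and 2.62% of all copies). The direction of values near 0 depends on scaling. EdgeR gave a median of -0.0053 over MT copies, 9 negative names and 0 lower at an unadjusted p, with positive values for MTEb-int_61 (0.028), MTB_Mm (0.11), MTC (0.053), MTC-int (0.019), MTD (0.057), MTE2a-int (0.011), MTE2b (0.090) and MTEb-int (0.081). DESeq2 called 4 copies, with 27 lower and 11 higher at an unadjusted p, a median of 0.0050, 10 negative names and 0 lower, and positive values for MTEb-int_61 (0.046), MTB_Mm (0.097), MTC (0.038), MTC-int (0.0038), MTD (0.042), MTE2b (0.075) and MTEb-int (0.066). TMM factors gave a median of -0.053 and positive values for MTEb-int_61 (0.047), MTB_Mm (0.062), MTC (0.0094), MTD (0.013), MTE2b (0.041) and MTEb-int (0.049). RLE factors gave a median of -0.042, -0.016 for the MTE sum, -0.028 for the family sum, and positive values for MTEb-int_61 (0.060), MTB_Mm (0.075), MTC (0.022), MTD (0.026), MTE2b (0.053) and MTEb-int (0.061). Factors without ribosomal rows gave a median of -0.023, -0.045 for the MTB sum, 0.017 for MTD, 0.0039 for MTE, -0.0080 for the family and 0.079 for MTEb-int_61. Without the members of the 2 stretches the MTA ratio was -0.094, 0 names were lower at an unadjusted p, and MTC-int was at 0.030. These stretches, the factors without ribosomal rows, the limma fits of sums and the replicate block were chosen after seeing the data. Leaving out 1 library at a time, limma called 0 to 55 copies, with 19 to 156 lower and 5 to 109 higher at an unadjusted p, a median from -0.18 to -0.0077 and 0 to 4 names lower. The differences then ranged from -0.33 to 0.015 for MTB_Mm_4440, -0.16 to 0.18 for MTC-int_2778, -0.16 to 0.080 for MTEb-int_61, -0.13 to 0.078 for MTB_Mm, -0.20 to 0.29 for MTB_Mm-int, -0.18 to 0.021 for MTC, -0.24 to 0.013 for MTC-int, -0.17 to 0.019 for MTD, -0.25 to 0.15 for MTE2b, -0.017 to 0.15 for MTEb, -0.16 to 0.082 for MTEb-int and -0.19 to 0.34 for MTE-int. Among gene lists, leave-outs gave 0 to 3 called delivered genes, 0 to 2 called fibroblast markers, and medians from -0.16 to 0.16 for retroelement silencing, -0.48 to 0.39 for the oocyte program and -0.19 to 1.43 for smooth muscle markers. The delivered genes had a median of 10.50 with 1 called at a pseudocount of 0.1, and a median of 5.25 at a pseudocount of 10. The cause of these changes was not tested. With the column letter of the repeats table as a replicate block, limma called 7 MT copies, all lower and 4 of them in the 2 stretches, where 0.903% of all copies were called, and 0 names, with 0 lower at an unadjusted p. No label says that the letters pair libraries, and their deviations correlated at 0.099 over all tested copies and 0.19 over MT copies, with 2 pairs only. In the gene table the fit with the replicate block called 11 genes, against 8 without it, and changed no list's count of calls. Depth limits the copies with few reads: 1 read is worth up to 1.47 normalized counts.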

Other observations

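A further internal name, MT-int, was not matched by the rule because it carries no subfamily letter. Its 6 copies summed to 119.6 and 118 in SON, against 153 and 169 in the GFP control, and MT-int_281 held 64.4% of the reads. Both SON libraries lay below both GFP control libraries (exact permutation p = 0.333, the smallest possible). Of the MT copies outside the 2 stretches, MTE2b_9470 had one of the lowest p-values, with 14.9 and 10.3 in SON, against 50.2 and 58.9 in the GFP control (log2 -2.04, limma adjusted p = 0.167, DESeq2 adjusted p = 0.140). The lowest p among positive differences was that of MTD_11384, with 32.6 and 33.8 in SON, against 10.9 and 11.3 in the GFP control (log2 1.50, limma adjusted p = 0.314). MTD_39068, the MTD LTR with the most reads, measured 99.2 and 184 in SON, against 320.4 and 298 in the GFP control (log2 -1.19, limma adjusted p = 0.361). These copies were picked after their values were seen.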
